A study of Danio rerio with 23 samples.

Results

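The genes studied here are 9 targets and effectors of the p53 damage response in the zebrafish liver: mdm2, cdkn1a, ccng1, phlda3, bbc3, baxa, fas, casp8 and badb. They were taken from a list of gene symbols, which was chosen with earlier results of these data known. All 9 were found among the 20667 genes that carried a symbol of their own on the array. They have 16 of the 75212 probe sets, and each gene is represented by its brightest one.

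p53 is a transcription factor that is kept low in healthy cells and accumulates when DNA is damaged, as by ionizing radiation. It then switches on genes that stop the cell cycle, repair DNA or kill the cell, and also mdm2, whose product marks p53 for destruction and so closes a negative feedback loop. In the liver, hepatocytes are mostly quiescent, and p53 is a well-known barrier against liver cancer.

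Liver RNA of 6-month-old fish was measured on 23 arrays, and every fish had been irradiated, so none of the comparisons is against unirradiated livers. Batch 2 received 10 Gy and held 5 arrays of HBx,src,p53 fish given Oligo-Fucoidan before irradiation (OF + 10 Gy), 3 of HBx,src,p53 fish with 10 Gy alone, and 2 each of WT fish with OF + 10 Gy and 10 Gy. Batch 1 received 40 Gy and held 4 arrays of HBx,src fish with OF + 40 Gy, 3 of HBx,src fish with 40 Gy, and 2 each of WT fish with OF + 40 Gy and 40 Gy. Oligo-Fucoidan, short chains of a sulfated seaweed polysaccharide, was fed by gavage at 300 mg/kg. By the methods, it was given before irradiation and again after it, so the OF groups stand for both. HBx, the X protein of hepatitis B virus, and src, an oncogenic kinase, were both driven in hepatocytes by the fabp10a promoter, and the third line also carried a p53 allele written as p53- in the labels and p53-/+ in the methods. Neither the kind of p53 mutation nor the p53 genotype of single fish was found in the labels or methods. The methods give the transgenic fish as female with diet-induced obesity. The WT fish were of the AB strain on a normal diet with no sex given, so genotype, diet and possibly sex cannot be told apart. The HBx,src and HBx,src,p53 lines also differed in dose and batch. The sources do not say whether the arrays came from separate animals, so p-values measure only the spread between arrays.

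Values are log2 signals as deposited, with array medians of 2.02 to 2.21 in batch 1 and 2.46 to 2.58 in batch 2, and groups were therefore compared within a batch. The hepatocyte gene fabp10a stood between 11.8 and 13.3 in all arrays. Both WT 10 Gy arrays carried ovary transcripts. The mean of 30 of 32 listed ovary and oocyte genes was 6.54 and 6.26 there and 1.79 to 3.58 in the other arrays, and the germ cell gene dazl had 8.26 and 7.71 against 1.50 to 3.12. The cell cycle list, with 22 of 24 genes, had means of 6.21 and 6.10 in these arrays and 2.06 to 3.99 elsewhere. The highest ovary mean outside that group, 3.58, belonged to replicate 3 of HBx,src 40 Gy. The yolk gene vtg2, which oestrogen induces in female liver, was low in 8 arrays (2.42 to 6.51), namely all WT arrays except those of WT 10 Gy, and replicates 1 and 4 of HBx,src,p53 OF + 10 Gy. It was 13.5 to 13.9 in the others. Replicates 1 and 4 of HBx,src,p53 OF + 10 Gy, a line given as female in the methods, were also low in the oestrogen receptor gene esr1. They had 5.63 and 4.89, against 9.85 to 10.44 in the other replicates of that group. The sex of these fish was not tested. In whole liver, more cells of a type and more RNA per cell cannot be told apart.

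**Figure D1:**
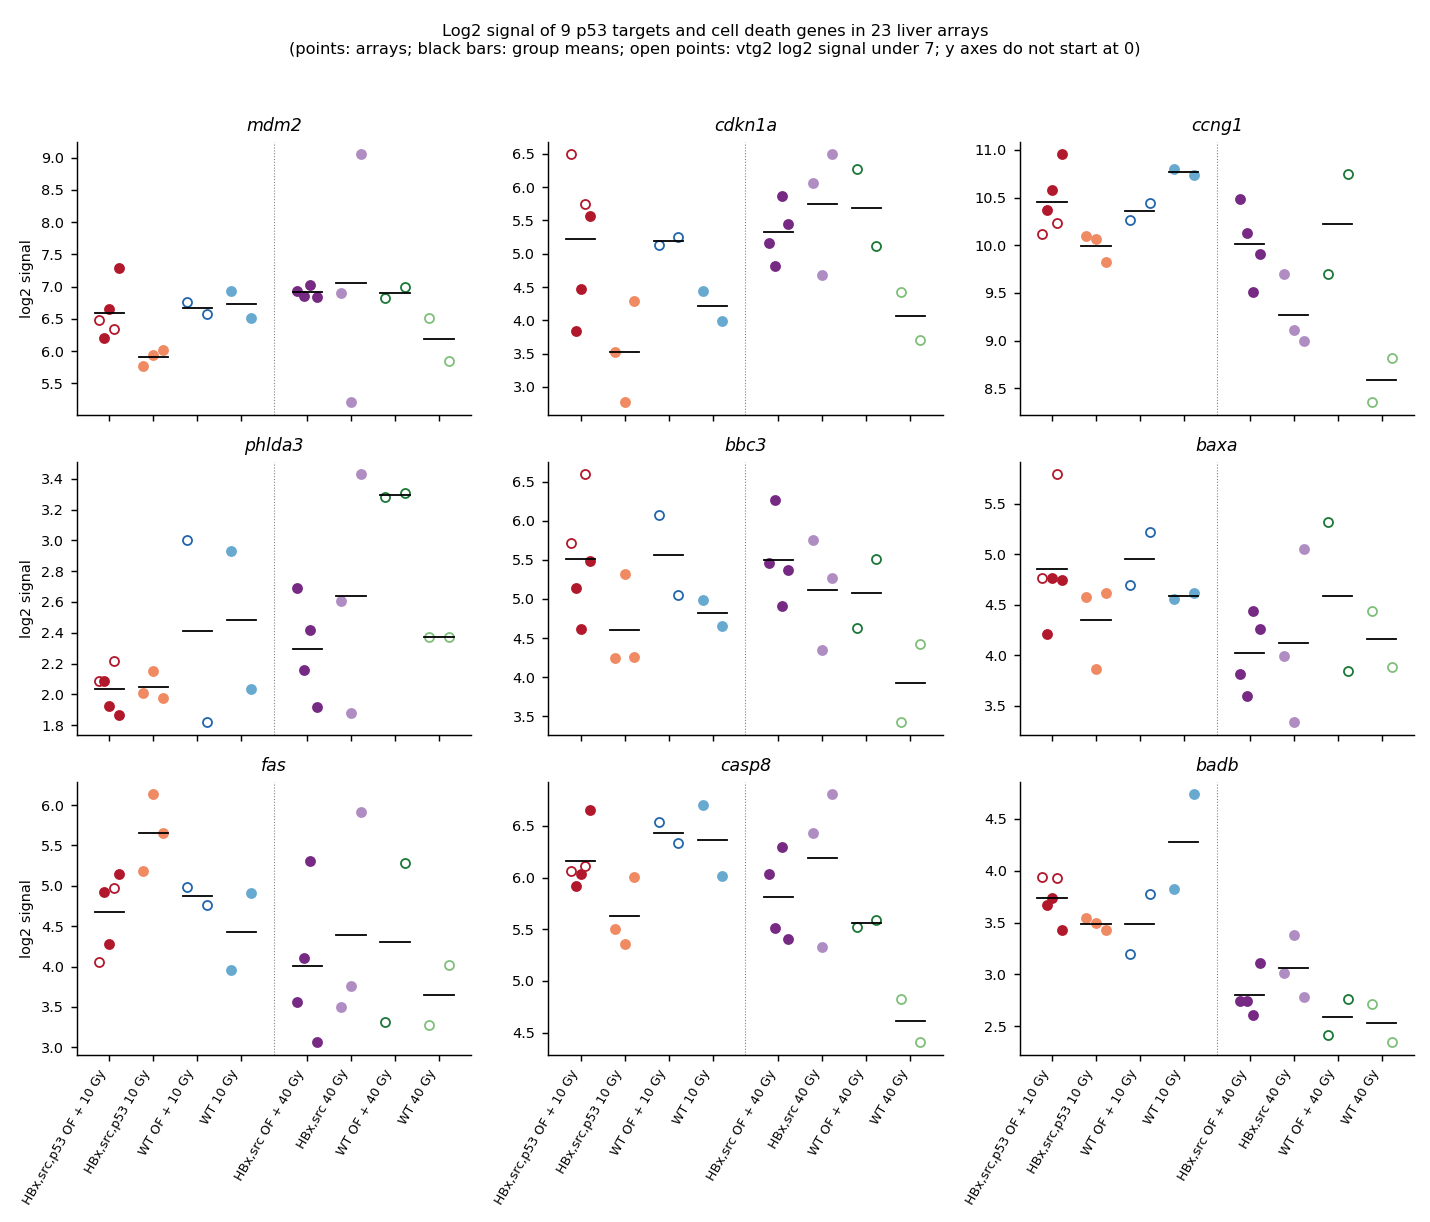
Log2 signal (y axis, a separate range for each gene) of the 9 genes in the 8 groups (x axis), with 1 point per array, black bars for group means and open points for the 8 arrays with a vtg2 log2 signal of 2.42 to 6.51. For most genes the groups overlap. All genes but phlda3 and baxa had their lowest batch 1 mean in WT 40 Gy, for mdm2, fas and badb by a step within the pooled SD. Replicate 3 of HBx,src 40 Gy had the highest mdm2 signal of all arrays, 9.06.

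The feedback gene mdm2 varied little in most groups. Its log2 signal was 6.48, 6.21, 6.65, 6.35 and 7.28 in HBx,src,p53 OF + 10 Gy and 5.76, 5.94 and 6.02 in HBx,src,p53 10 Gy, against 6.76 and 6.57 in WT OF + 10 Gy and 6.93 and 6.51 in WT 10 Gy. The 3 HBx,src,p53 10 Gy arrays were thus the lowest of batch 2. In batch 1, mdm2 was 6.83 to 7.02 in HBx,src OF + 40 Gy, 6.82 and 6.99 in WT OF + 40 Gy and 6.51 and 5.85 in WT 40 Gy, while the HBx,src 40 Gy arrays spread over 6.90, 5.21 and 9.06. The array at 9.06 also had the highest signals of its group for cdkn1a, phlda3, baxa, fas and casp8, and the ovary mean of 3.58 given above. Within either batch, no step between neighbouring group means exceeded the pooled SD within groups of 0.76.

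cdkn1a encodes p21, the inhibitor of cyclin-dependent kinases through which p53 arrests the cell cycle. Its log2 signal was 6.49, 3.84, 4.47, 5.74 and 5.57 in HBx,src,p53 OF + 10 Gy and 3.52, 2.77 and 4.30 in HBx,src,p53 10 Gy, against 5.12 and 5.25 in WT OF + 10 Gy and 4.45 and 3.99 in WT 10 Gy. In batch 1 it was 4.82 to 5.87 in HBx,src OF + 40 Gy and 6.07, 4.68 and 6.50 in HBx,src 40 Gy, against 6.27 and 5.12 in WT OF + 40 Gy and 4.42 and 3.70 in WT 40 Gy. In batch 2 the means of HBx,src,p53 OF + 10 Gy and WT OF + 10 Gy, 5.22 and 5.19, could not be ordered within the pooled SD of 0.78. A gap of 0.97 separated them from WT 10 Gy at 4.22, and HBx,src,p53 10 Gy followed at 3.53, a step within that SD. In batch 1 WT 40 Gy had the lowest mean, 4.06, and the other means lay between 5.32 and 5.75.

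ccng1 encodes cyclin G1, a p53 target that acts with a phosphatase on Mdm2 in mammals. In batch 2 its group means were 10.45 ± 0.33 in HBx,src,p53 OF + 10 Gy (SD, n = 5), 9.99 ± 0.15 in HBx,src,p53 10 Gy (n = 3), 10.35 ± 0.13 in WT OF + 10 Gy and 10.77 ± 0.04 in WT 10 Gy (n = 2 each). In batch 1 they were 10.01 ± 0.41 in HBx,src OF + 40 Gy (n = 4), 9.27 ± 0.38 in HBx,src 40 Gy (n = 3), 10.22 ± 0.74 in WT OF + 40 Gy and 8.58 ± 0.33 in WT 40 Gy (n = 2 each). phlda3, known in mammals as a brake on Akt signalling, was dim, with 1.82 to 3.43 over all arrays and below the array median in 12 of 23. Of the batch 1 groups, WT OF + 40 Gy had the highest mean, with 3.28 and 3.31.

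The mitochondrial arm of cell death is represented by bbc3, baxa and badb. bbc3, which encodes the BH3-only protein Puma, ranged from 3.42 to 6.60 and had its lowest mean of batch 1 in WT 40 Gy, 3.92 ± 0.70 (SD, n = 2). baxa, a gene of the pore-forming protein Bax, ranged from 3.34 to 5.79, and no step between neighbouring group means of a batch exceeded its pooled SD of 0.58. badb, a gene of the BH3-only protein Bad, stood between 2.35 and 3.38 in batch 1 and between 3.2 and 4.74 in batch 2, and its highest values in batch 2 included 3.82 and 4.74 in WT 10 Gy. These batch levels are not comparable, since the batches differed in their medians. The receptor arm is represented by fas, the death receptor, and casp8, the caspase that the activated receptor switches on. fas had 5.19, 6.14 and 5.65 in HBx,src,p53 10 Gy, which lay above the 3.96 to 5.14 of the other batch 2 arrays, and 3.06 to 5.91 in batch 1. casp8 had 5.92 to 6.65 in HBx,src,p53 OF + 10 Gy and 5.50, 5.36 and 6.01 in HBx,src,p53 10 Gy, against 6.53 and 6.34 in WT OF + 10 Gy and 6.70 and 6.01 in WT 10 Gy.

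The first comparison asked whether these genes differed between HBx,src,p53 and WT livers that had received 10 Gy. Over both treatments, 8 of the 9 genes had lower means in HBx,src,p53 livers and fas a higher one, but no difference passed the test. With limma, 0 of 9 genes were called (an adjusted p under 0.05 over all probe sets), where 11.8% of all genes were, and 0 of 9 had an unadjusted p under 0.05, where 26.2% of all genes had. The median log2 difference of the 9 genes was -0.33, and that of all genes was -0.01. casp8 came nearest with -0.51 (95% interval -1.03 to 0.02, unadjusted p = 0.057, adjusted p = 0.31). Its second probe set, with a mean log2 signal of 2.38, gave 0.28 (adjusted p = 0.38). The intervals were wide, at -1.37 to 0.48 for mdm2, -1.28 to 0.63 for cdkn1a and -0.93 to 0.67 for bbc3, so a 2-fold lower level of mdm2 or cdkn1a, 1 unit on the log2 scale, lies within them.

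At 10 Gy without Oligo-Fucoidan, limma again called 0 of 9 genes (13.8% of all genes), with 2 of 9 at an unadjusted p under 0.05 (26.5% of all genes), and the median log2 difference was -0.69 against 0.01 over all genes. badb was lower in HBx,src,p53 livers by -0.79 (95% interval -1.34 to -0.24, adjusted p = 0.082), and ccng1 by -0.78 (-1.45 to -0.11, adjusted p = 0.19). fas was 1.23 higher (-0.27 to 2.72, adjusted p = 0.42). The WT 10 Gy arrays in this comparison are those with ovary transcripts. Other marker lists also differed, HBx,src,p53 against WT, without overlap. The cell cycle mean was 2.81 to 3.26 against 6.10 to 6.21, and the hepatocyte mean 11.7 to 11.9 against 12.1 to 12.3. The biliary mean was 7.08 to 7.29 against 7.37 to 7.55. The erythrocyte mean was 4.32 to 4.83 against 3.76 to 4.26, and the neutrophil and macrophage mean 3.85 to 4.62 against 3.27 to 3.78. The part of all these in the differences was not tested. With the first WT 10 Gy array left out, badb had -1.25 and was called (adjusted p = 0.013), and with the second left out it had -0.33. With the mean of a gene's probe sets, badb (-0.79, adjusted p = 0.041) and ccng1 (-1.10, adjusted p = 0.041) were called.

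After Oligo-Fucoidan, HBx,src,p53 and WT livers differed by -0.37 (phlda3) to 0.26 (badb), with a median of -0.07, and 0 of 9 genes were called by limma (1.06% of all genes) and 0 of 9 had an unadjusted p under 0.05 (10.8% of all genes). The widest intervals were those of fas, -1.57 to 1.17, and cdkn1a, -1.25 to 1.32, and the narrowest was that of badb, -0.24 to 0.76. In these arrays dazl was 1.50 to 2.00 and did not separate the genotypes. Other markers differed, with overlap for vtg2 and the exocrine pancreas list and without it for the erythrocyte and hepatocyte lists. vtg2 was 13.8 to 13.9 in 3 and 3.69 and 6.51 in 2 of the HBx,src,p53 arrays, against 3.96 and 3.18 in WT arrays. The mean of 13 of 15 erythrocyte genes was 4.28 to 5.62 in HBx,src,p53 and 6.19 and 6.07 in WT arrays, and that of 14 of 17 exocrine pancreas genes was 5.25 to 8.21 against 5.37 and 4.27. The mean of 16 of 17 hepatocyte genes was 12.27 to 12.53 in HBx,src,p53 and 12.55 and 12.58 in WT arrays. Their part was not tested.

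**Figure D2:**
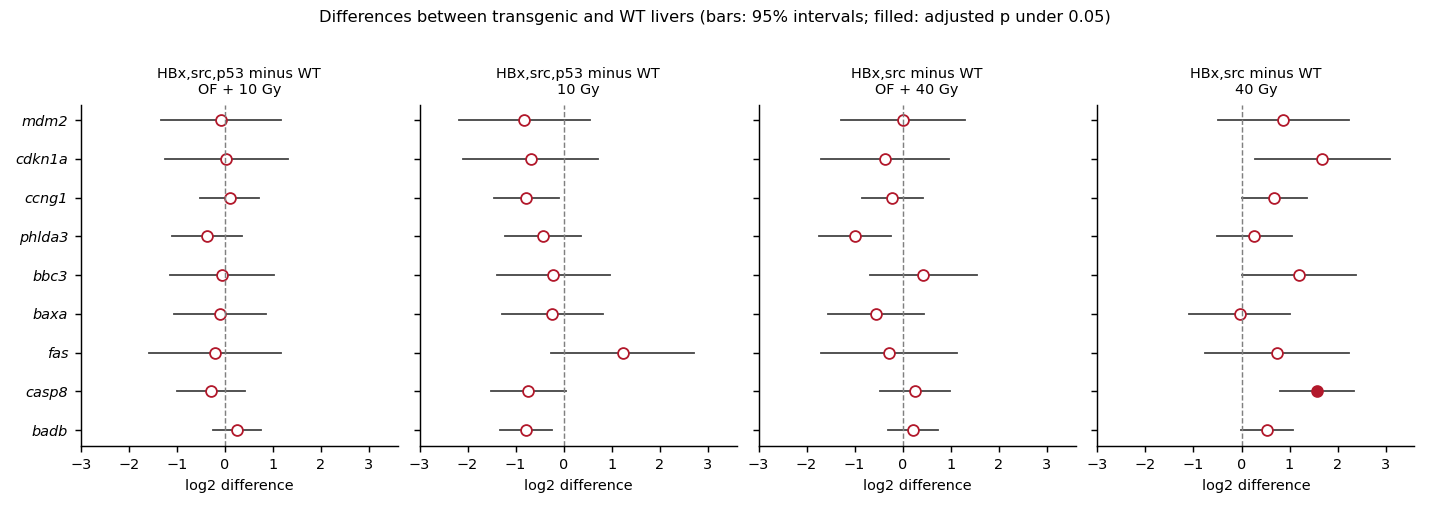
Log2 difference between transgenic and WT livers (x axis) for the 9 genes (rows) at each dose with and without Oligo-Fucoidan, with 95% intervals as bars and filled points for an adjusted p under 0.05. At 10 Gy, 8 of 9 points lie below 0, at OF + 10 Gy all lie between -0.37 and 0.26, and the 1 filled point is casp8 in HBx,src livers at 40 Gy.

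In HBx,src livers, which carry no p53 allele in their label, the differences from WT at 40 Gy ran mostly upwards. casp8 was 6.43, 5.33 and 6.81 in HBx,src 40 Gy, against 4.82 and 4.41 in WT 40 Gy, without overlap. The difference of 1.57, or 2.97-fold (standard error 0.37, 95% interval 0.80 to 2.35), was called by limma (adjusted p = 0.0349), as 1 of 9 genes against 2.67% of all genes, and 4 of 9 had an unadjusted p under 0.05 (17.0% of all genes). cdkn1a had a difference of 1.69 (0.28 to 3.09, adjusted p = 0.24), bbc3 of 1.2 (0.02 to 2.38, adjusted p = 0.34) and ccng1 of 0.68 (0.01 to 1.36, adjusted p = 0.33). The median over the 9 genes was 0.74, against 0.02 over all genes. The casp8 call was lost without either WT 40 Gy array or without HBx,src replicate 1 or 3 (differences of 1.26 to 1.78, adjusted p of 0.059 to 0.15), with array weights, and when batch 1 was fitted alone (adjusted p = 0.16 in both). In these arrays vtg2 was 13.8 to 13.9 in HBx,src 40 Gy and 2.42 and 2.81 in WT 40 Gy. Marker lists also differed without overlap, HBx,src 40 Gy against WT 40 Gy. The exocrine pancreas mean was 3.53 to 4.41 against 4.55 and 5.91, and the erythrocyte mean 3.33 to 3.40 against 3.76 and 3.93. The cell cycle mean was 2.28 to 2.98 against 2.096 and 2.088. Replicate 3 of HBx,src 40 Gy, with the highest casp8 signal of its group, also had the ovary mean of 3.58 given above. Their part in the differences was not tested.

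After Oligo-Fucoidan at 40 Gy, casp8 was 6.04, 5.51, 6.29 and 5.40 in HBx,src livers, against 5.52 and 5.59 in WT livers, a difference of 0.26 (-0.48 to 0.99). None of the 9 genes was called there (1.41% of all genes) and 1 of 9 had an unadjusted p under 0.05 (13.7% of all genes), which was phlda3 with -0.998 (-1.75 to -0.25, adjusted p = 0.27). Averaged over both treatments, casp8 was 0.91 higher in HBx,src than in WT livers (0.38 to 1.45, adjusted p = 0.059), and limma called 0 of 9 genes (4.68% of all genes), with 2 of 9 at an unadjusted p under 0.05 (20.0% of all genes). Without HBx,src 40 Gy replicate 2 casp8 was called (1.13, adjusted p = 0.010), and it was called with quantile normalization, with the mean of its probe sets and with the dimmer probe sets dropped.

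The genotype differences of the lines were then set against each other, each line against WT of its own batch. For casp8, the difference over both treatments was -0.51 in HBx,src,p53 livers and 0.91 in HBx,src livers. The first minus the second was -1.42 (standard error 0.36, 95% interval -2.17 to -0.67, adjusted p = 0.0272 by limma), and casp8 was the 1 of 9 genes called (8.08% of all genes). badb, the gene with the next smallest p, had -0.64 (-1.16 to -0.11, adjusted p = 0.19). These lines differed by the p53 allele, by dose and by batch, which cannot be told apart. Their WT references were also unlike. WT 10 Gy had ovary means of 6.54 and 6.26 and vtg2 at 13.7 and 13.9. The WT arrays of batch 1 had ovary means of 1.93 to 2.01 and vtg2 at 2.42 to 6.36. The part of this was not tested. The casp8 call was lost with the mean of its probe sets (-0.66, adjusted p = 0.053), without the 2 low-vitellogenin HBx,src,p53 arrays (-1.40, adjusted p = 0.051), and without replicate 2 of WT 40 Gy or replicate 1 of WT OF + 40 Gy, WT 10 Gy or WT OF + 10 Gy (-1.25 to -1.40, adjusted p of 0.062 to 0.089).

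The next question was how these genes differed between irradiated livers with and without Oligo-Fucoidan. The clearest change was that of ccng1 in WT livers at 40 Gy. Its log2 signal was 9.70 and 10.75 in WT OF + 40 Gy, against 8.35 and 8.81 in WT 40 Gy, without overlap. It was higher with Oligo-Fucoidan by 1.64, or 3.12-fold (standard error 0.35, 95% interval 0.91 to 2.38, adjusted p = 0.0187 by limma), and its second probe set was higher by 2.35 (adjusted p = 0.0149). ccng1 was the 1 of 9 genes called (4.82% of all genes, and 4.06% in this direction), and all 9 had positive differences, with a median of 0.93 against 0.07 over all genes. At an unadjusted p under 0.05 there were 4 of 9 genes (22.8% of all genes), which also included cdkn1a with 1.63 (0.09 to 3.17, adjusted p = 0.25), casp8 with 0.94 (0.09 to 1.79, adjusted p = 0.22) and phlda3 with 0.93 (0.06 to 1.79, adjusted p = 0.24). At fold 2 and an unadjusted p under 0.05, the thresholds of the study, ccng1 and cdkn1a passed, as 2 of 9 genes against 10.9% of all genes. In these arrays vtg2 was 6.36 and 4.64 with Oligo-Fucoidan and 2.42 and 2.81 without it. Other marker lists moved too, without overlap. Their means were 4.21 and 4.54 against 3.73 and 2.93 for 14 of 16 neutrophil and macrophage genes, and 7.48 and 8.0 against 6.51 and 7.17 for 7 of 7 biliary genes. They were 3.37 and 4.04 against 4.55 and 5.91 for 14 of 17 exocrine pancreas genes, and 3.58 and 3.28 against 3.76 and 3.93 for 13 of 15 erythrocyte genes. The part of these in the ccng1 rise and in the other 8 genes was not tested. With the replicate numbers as blocks in limma, ccng1 was not called (1.64, adjusted p = 0.059). The ccng1 call was lost with the second WT OF + 40 Gy array left out (1.12, adjusted p = 0.27), with the first WT 40 Gy array left out (1.41, adjusted p = 0.096), when batch 1 was fitted alone (adjusted p = 0.12), and with array weights (adjusted p = 0.061), while it held under 3 other scalings (1.52 to 1.79).

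In WT livers at 10 Gy, ccng1 was 10.26 and 10.45 with Oligo-Fucoidan and 10.80 and 10.74 without it, a difference of -0.42 (-1.15 to 0.32, adjusted p = 0.65). The effect of Oligo-Fucoidan on ccng1 in WT livers was therefore larger at 40 Gy than at 10 Gy by 2.06 (standard error 0.49, 95% interval 1.02 to 3.10, adjusted p = 0.0238), the 1 of 9 genes called in that test (6.93% of all genes). Dose and batch cannot be told apart here, and the WT 10 Gy arrays held ovary transcripts. In WT livers at 10 Gy, vtg2 was 3.96 and 3.18 with Oligo-Fucoidan and 13.7 and 13.9 without it. The erythrocyte mean was 6.19 and 6.07 against 4.26 and 3.76, and the exocrine pancreas mean 5.37 and 4.27 against 6.90 and 6.67. The cell cycle mean was 2.55 and 2.46 against 6.21 and 6.10, and the hepatocyte mean 12.5 and 12.6 against 12.3 and 12.1. The part of these was not tested. In the 10 Gy comparison itself limma called 0 of 9 genes (9.19% of all genes), with 1 of 9 at an unadjusted p under 0.05 (24.3% of all genes), which was badb with -0.79 (-1.39 to -0.20, adjusted p = 0.14). With the first WT 10 Gy array left out, badb had -1.25 here too and was called (adjusted p = 0.023), and with the second left out it had -0.34.

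In HBx,src livers ccng1 was 10.49, 10.13, 9.51 and 9.91 with OF + 40 Gy, against 9.70, 9.11 and 8.99 with 40 Gy, with 1 array of each group in the overlap. The difference of 0.74, or 1.67-fold (0.18 to 1.30, adjusted p = 0.22), was the 1 of 9 at an unadjusted p under 0.05 (16.2% of all genes), and limma called 0 of 9 genes (2.32% of all genes). The second ccng1 probe set rose by 1.59 (adjusted p = 0.039), and the mean of both was called too (1.16, adjusted p = 0.040). In these arrays the neutrophil and macrophage mean was 3.82 to 4.29 with Oligo-Fucoidan and 3.39 to 3.48 without it. Other marker lists differed without overlap too. The hepatocyte mean was 12.0 to 12.2 against 11.7 to 11.9, and the erythrocyte mean 3.50 to 4.05 against 3.33 to 3.40. The cell cycle mean was 2.06 to 2.23 against 2.28 to 2.98. The part of these lists was not tested. The other genes had small mean differences, by -0.42 (cdkn1a) to 0.38 (bbc3), but their spread was unequal: mdm2 had an SD of 0.09 in HBx,src OF + 40 Gy (n = 4) and of 1.93 in HBx,src 40 Gy (n = 3). The effect of Oligo-Fucoidan did not pass the test for a difference between HBx,src and WT livers in any of the 9 genes (limma, 0.227% of all genes called), with 3 of 9 at an unadjusted p under 0.05 (10.6% of all genes), cdkn1a with -2.06 (-3.99 to -0.12), casp8 with -1.32 (-2.38 to -0.25) and phlda3 with -1.27 (-2.35 to -0.18).

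In HBx,src,p53 livers the largest difference with Oligo-Fucoidan was that of cdkn1a, 1.69, or 3.23-fold (standard error 0.53, 95% interval 0.57 to 2.82), with an adjusted p of 0.099. Limma called 0 of 9 genes (5.84% of all genes), and cdkn1a was the 1 of 9 at an unadjusted p under 0.05 (22.1% of all genes). Only replicate 2 of HBx,src,p53 OF + 10 Gy, at 3.84, lay within the range of the HBx,src,p53 10 Gy arrays, and without it cdkn1a was called (2.04, adjusted p = 0.033). At the study's thresholds cdkn1a was the 1 gene of 9 that passed (8.14% of all genes). The arrays at 6.49 and 5.74, replicates 1 and 4, are those with vtg2 at 3.69 and 6.51. Without both, the cdkn1a difference was 1.1 (adjusted p = 0.41). The mean of 16 of 17 hepatocyte genes was 12.3 to 12.5 with Oligo-Fucoidan and 11.7 to 11.9 without it, and that of the biliary genes was 7.48 to 7.72 and 7.08 to 7.29. Their part was not tested. bbc3 had 0.90 (-0.04 to 1.85), mdm2 0.69 (-0.40 to 1.78) and fas -0.98 (-2.18 to 0.21), and the median of the 9 genes was 0.50 against 0.00 over all genes. No gene passed the test for a difference in the Oligo-Fucoidan effect between HBx,src,p53 and WT livers (limma, 0 of 9, 6.81% of all genes), with 1 of 9 at an unadjusted p under 0.05 (19.3% of all genes), which was badb with 1.05 (0.31 to 1.79, adjusted p = 0.14).

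**Figure D3:**
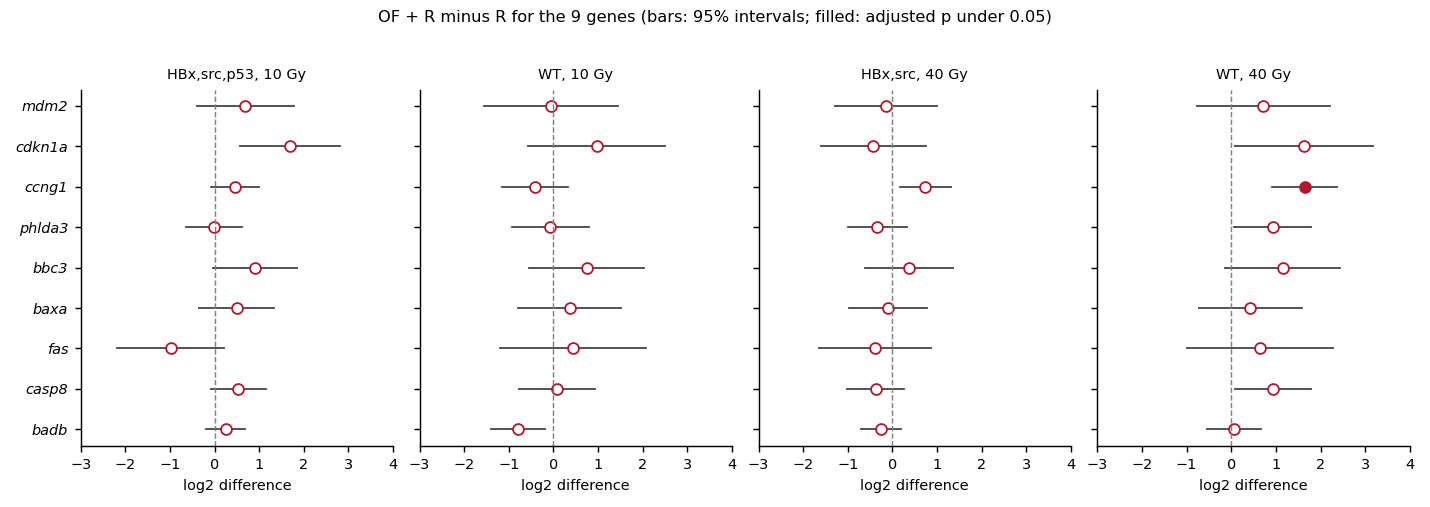
Log2 difference of OF + R minus R (x axis, R being irradiation alone) for the 9 genes (rows) in the 4 kinds of fish, with 95% intervals as bars and filled points for an adjusted p under 0.05. All 9 points lie above 0 in WT livers at 40 Gy, where ccng1 is the 1 filled point, and cdkn1a is the highest point in HBx,src,p53 livers.

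The wider p53 network was described with 4 lists of 98 genes in all, which do not include the 9 genes above: 22 of 25 damage sensors and p53 regulators, 23 of 26 cell cycle arrest targets, 29 of 40 apoptosis genes and 24 of 30 repair, metabolic and other targets were on the array with a symbol of their own. Between HBx,src,p53 and WT livers over both treatments, limma called 2 higher and 9 lower of the 98 genes, beside 4.37% and 7.46% of all genes. Their median log2 difference was -0.17, and that of all genes was -0.01. Lower were the regulators ppm1db (-1.1), cop1 (-1.2), chek1 (-0.90) and chek2 (-0.71), the arrest genes plk3 (-2.70) and gtse1 (-1.64) and the apoptosis genes siva1 (-2.64), pmaip1 (-2.36) and baxb (-1.08). Higher were mdm4 (0.85), which encodes a relative of Mdm2 that inhibits p53, and cycsb (1.23), which encodes a cytochrome c. Of the repair list limma called 0 of 24 (11.8% of all genes), with 7 at an unadjusted p under 0.05 (26.2% of all genes). The chek1 call was lost without replicate 1 of WT 10 Gy or replicate 2 of WT OF + 10 Gy (adjusted p = 0.11 and 0.076), and that of mdm4 without replicate 1 of either WT group (adjusted p = 0.15 and 0.098). The cycsb call was lost without replicate 3 of HBx,src,p53 10 Gy, replicate 2 of WT 10 Gy or either WT OF + 10 Gy array (adjusted p of 0.058 to 0.13). With batch 2 fitted alone, chek1 and cycsb were not called (adjusted p = 0.064 and 0.070).

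The calls stood mostly at 10 Gy without Oligo-Fucoidan. There limma called 5 higher and 16 lower of the 98 genes (5.35% and 8.45% of all genes), and at OF + 10 Gy it called 0 of 98 (1.06% of all genes), with 10 of 98 at an unadjusted p under 0.05 (10.8% of all genes). siva1, which encodes a pro-apoptotic p53 target of mammals, had log2 signals of 4.57, 4.93 and 5.11 in HBx,src,p53 10 Gy, against 10.12 and 10.12 in WT 10 Gy, a difference of -5.25 (standard error 0.40, adjusted p = 4.3e-08). plk3, a polo-like kinase of the damage response, had 3.33, 4.36 and 5.50 against 9.08 and 9.22, a difference of -4.75 (standard error 0.54, adjusted p = 8.1e-06). pmaip1, which encodes the BH3-only protein Noxa, had 2.59, 1.95 and 2.26 against 6.81 and 6.34, a difference of -4.30 (standard error 0.75, adjusted p = 0.00088). The checkpoint kinase gene chek1 had 1.71, 1.85 and 1.86 against 4.35 and 3.48, a difference of -2.11 (standard error 0.31, adjusted p = 0.00015). Across these 5 arrays the mean of the 30 ovary genes was 2.11 to 2.89 in HBx,src,p53 10 Gy and 6.54 and 6.26 in WT 10 Gy. The cell cycle list and other marker lists differed as well, as given above. The part of all these in the differences was not tested. With OF + 10 Gy, where dazl was at most 2.00, siva1 was 4.78 to 5.20 in HBx,src,p53 livers, against 5.28 and 4.62 in WT livers. baxb, a second gene of the Bax family, had a difference of -1.16 (adjusted p = 0.043) at 10 Gy and of -1.0 (adjusted p = 0.20, not called) at OF + 10 Gy, with 5.11, 4.27, 4.01, 4.86 and 4.43 in HBx,src,p53 OF + 10 Gy against 5.40 and 5.67 in WT OF + 10 Gy, and 4.25, 4.15 and 3.61 in HBx,src,p53 10 Gy against 5.43 and 4.90 in WT 10 Gy.

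**Figure D4:**
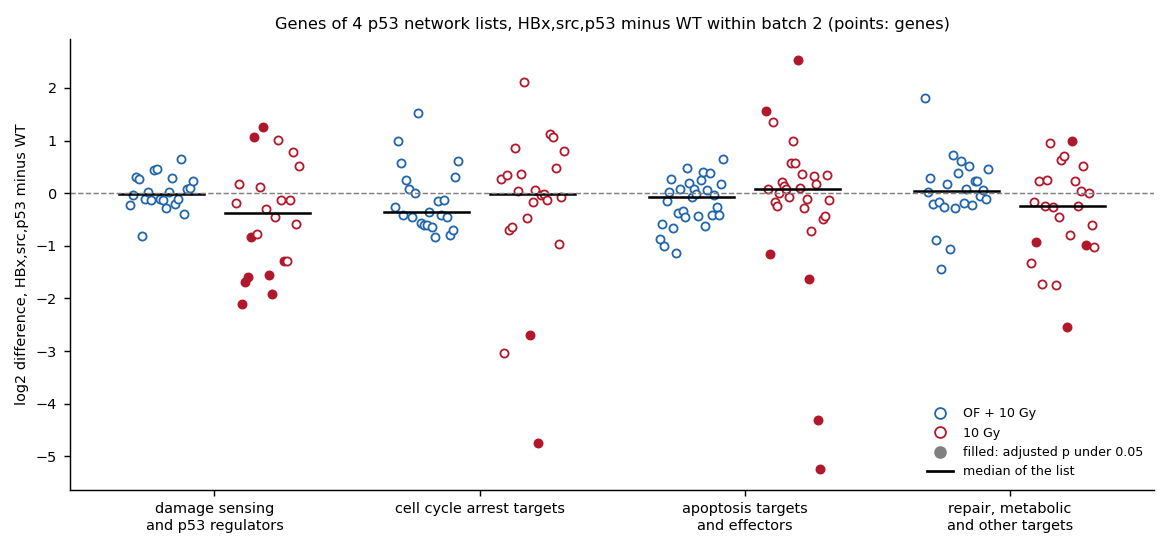
Log2 difference of HBx,src,p53 minus WT (y axis) for the genes of the 4 lists (x axis) at OF + 10 Gy and 10 Gy, with 1 point per gene, filled for an adjusted p under 0.05, and black bars for list medians. All 21 filled points are at 10 Gy, where siva1, plk3 and pmaip1 lie below -4.

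**Figure D5:**
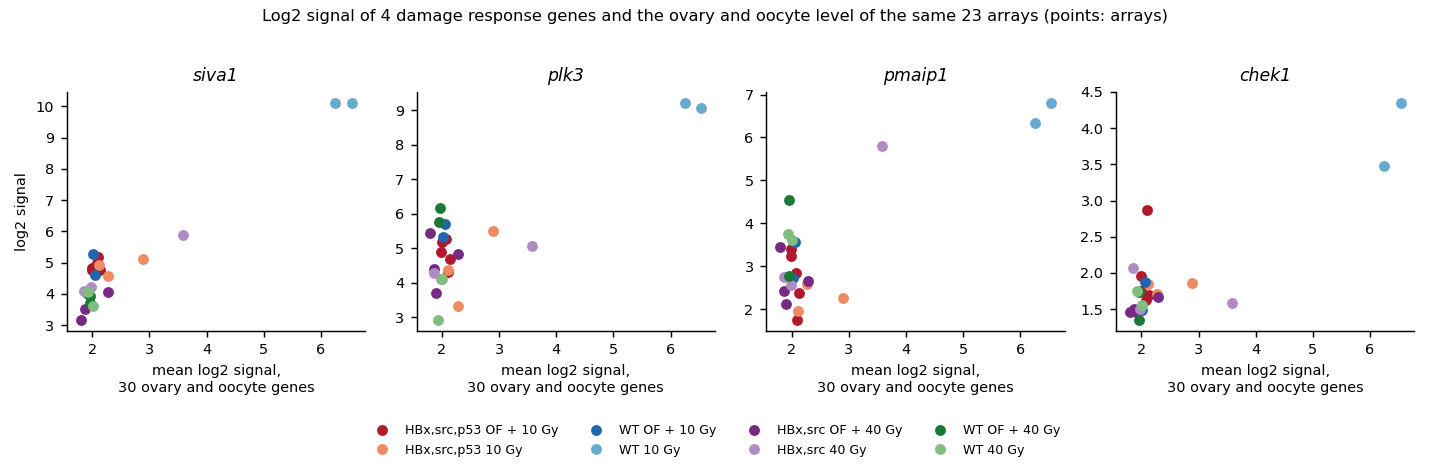
Log2 signal of siva1, plk3, pmaip1 and chek1 (y axes) against the mean log2 signal of 30 ovary and oocyte genes (x axis), with 1 point per array. Both WT 10 Gy arrays lie apart at ovary means of 6.26 and 6.54 with the highest signal of each gene, and replicate 3 of HBx,src 40 Gy, at 3.58, has a pmaip1 signal of 5.79.

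The WT 10 Gy arrays also enter the comparison of WT livers with and without Oligo-Fucoidan. Those groups differed in vtg2 and in ovary, cell cycle, hepatocyte, erythrocyte and exocrine pancreas genes, as given above, and the part of these was not tested. At 10 Gy, limma called 2 higher and 8 lower of the 98 genes in WT livers with Oligo-Fucoidan (2.6% and 6.59% of all genes), among them siva1 with -5.17, plk3 with -3.64, pmaip1 with -3.44, chek1 with -2.24 and ppm1db with -1.25. At 40 Gy the same treatment called 7 higher and 0 lower in WT livers (4.06% and 0.755% of all genes), and plk3 rose by 2.44 (6.17 and 5.77 in WT OF + 40 Gy, against 4.12 and 2.93 in WT 40 Gy, adjusted p = 0.034). In HBx,src livers 3 genes were higher and 0 lower (2.09% and 0.227% of all genes). The split of calls at 40 Gy moved with the scaling: of all probe sets, 1409 were higher and 813 lower in WT livers with Oligo-Fucoidan as deposited, against 2067 and 368 with arrays centred on their median and 470 and 482 with quantile normalization within each batch, and in HBx,src livers 791 and 242 against 573 and 559 with quantile normalization over all arrays. Centring moved the median difference of all probe sets in WT livers to 0.07, against -0.08 as deposited. The median of the 98 genes with Oligo-Fucoidan was 0.17 in WT and 0.15 in HBx,src livers at 40 Gy, beside 0.07 and 0.01 over all genes.

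In HBx,src,p53 livers Oligo-Fucoidan was followed by 5 higher and 2 lower calls among the 98 genes (2.53% and 3.3% of all genes), with a median of 0.28 against 0.00 over all genes. The genes of this paragraph other than cycsb were chosen after their values were seen. ddb2, a sensor of DNA photolesions, had 6.50, 6.38, 6.40, 7.02 and 6.96 with OF + 10 Gy and 5.43, 4.81 and 4.92 with 10 Gy, a rise of 1.60 (adjusted p = 0.022) without overlap. In WT livers it ran the other way, with 4.87 and 4.83 against 6.40 and 6.37, and the effects differed by 3.13 (adjusted p = 0.0052), with the ovary transcripts of WT 10 Gy on the WT side. sesn2, a stress-induced inhibitor of growth signalling, fell by 2.5 (5.15, 3.99, 4.73, 4.87 and 4.33 against 7.31, 8.03 and 5.99, adjusted p = 0.0030), and cycsb fell by 1.77 (adjusted p = 0.014). xiap, an inhibitor of caspases, rose by 1.1 (7.69, 7.49, 7.37, 7.36 and 7.01 against 5.99, 6.73 and 6.12, adjusted p = 0.0059). Also higher were sirt1 by 1.37, ep300a by 0.76 and gls2a by 2.32. The gls2a signal was 8.33 and 6.69 in the 2 arrays with low vtg2 and 4.60 to 6.08 in the other 3. The HBx,src,p53 groups also differed in their hepatocyte and biliary means, as given above. The part of these and of vtg2 in the changes of this paragraph was not tested.

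Between HBx,src and WT livers over both treatments, limma called 1 higher and 6 lower of the 98 genes (1.86% and 2.82% of all genes), again with genes named after their values were seen. gls2b, a glutaminase gene, was 5.10, 4.80, 6.07 and 4.05 in HBx,src OF + 40 Gy and 2.09, 3.35 and 5.36 in HBx,src 40 Gy, against 7.81 and 8.31 in WT OF + 40 Gy and 7.23 and 8.02 in WT 40 Gy, a difference of -3.54 (adjusted p = 0.0017). plk2b was lower by -1.43 and tnfrsfa, a death receptor gene, by -1.15. In these arrays vtg2 was 13.5 to 13.9 in HBx,src livers and 2.42 to 6.36 in WT livers, and its part was not tested. Of these genes, limma called gls2b and plk2b in the genotype difference of batch 2 minus that of batch 1 (8.08% of all genes). The values there were 3.89 and 1.28 (adjusted p = 0.0058 and 0.044). That test subtracts the same HBx,src minus WT difference for which these genes were named, so a call there is no separate support. The WT references of the batches were also unlike, as given above, and the part of this was not tested.

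Across the 23 arrays, with the batch mean of each gene subtracted, mdm2 ran closest with casp8 (Pearson r = 0.76), and cdkn1a with casp8 (0.70) and baxa (0.66), while mdm2 and cdkn1a had 0.58. The lowest of the pairs was phlda3 with badb, -0.32. Of all genes on the array, those with the pattern most like mdm2 were casp8, pdcd7 (0.76), lin54 (0.74), taf1c (0.73) and tmem18 (0.72), and those most like cdkn1a were erg (0.77), itm2ba (0.77), unm_sa1614 (0.76), erap1a (0.75) and lipeb (0.74). These values describe arrays that share groups and, in part, the vitellogenin and ovary differences above. pdcd7 had 7.69 in replicate 3 of HBx,src 40 Gy, the array with the highest mdm2, and 3.9 to 6.43 in the others.

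Further probe sets of the same gene did not always move alike. The second mdm2 probe set gave -0.45 for HBx,src,p53 minus WT at 10 Gy where the brighter gave -0.82, and the second fas probe set 1.01 where the brighter gave 1.23. The second ccng1 probe set gave -1.41 (adjusted p = 0.061) where the brighter gave -0.78. For casp8 the second probe set, with a mean log2 signal of 2.38 against 5.89, gave 0.59 where the brighter gave -0.74, and 0.51 (adjusted p = 0.32) where the brighter gave 1.57 in HBx,src minus WT at 40 Gy. In HBx,src livers with Oligo-Fucoidan it fell by 0.81 (adjusted p = 0.044), where the brighter gave -0.38. The other phlda3 probe sets, at mean signals of 1.84 and 1.91, gave 0.19 and 0.20 at 10 Gy where the brightest gave -0.44.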

How the data were processed

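Liver RNA of irradiated WT, HBx,src and HBx,src,p53 zebrafish was hybridised to 23 ZebGene ST arrays in 2 batches. The deposited values are log2 signals, 1 for each probe set on each array, which the authors obtained with the Transcriptome Analysis Console after background correction and normalization, and they were used unchanged. Its version, algorithm and annotation build are not given in sources used here, nor is it known whether both batches were normalized together. Array number limits the precision.

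Of 75212 probe sets, 29528 carried 1 gene symbol, 1845 several and 43839 no gene in the annotation used, and genes with several probe sets were represented by the brightest. Detection calls were not used. A model of 8 group means was fitted to all arrays with limma 3.58.1 in R 4.3.3 (lmFit, eBayes, 15 residual degrees of freedom), with Benjamini-Hochberg adjustment over all probe sets, a threshold of 0.05 and 95% intervals. Tables were made with data.table (1.17.8), pandas 2.3.3 and numpy 2.4.6, and figures with matplotlib 3.10.9 (python 3.11.15). On simulated arrays, changes of 1 and 2 log2 units were recovered for 33% and 85% of 100 probe sets each in the mean HBx,src,p53 minus WT difference. These probe sets were brighter than the median, the noise was drawn as normal, and the line difference of all other probe sets was removed. The recovery in the measured data, where many more genes differed, can therefore be another.

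The 9 genes and all lists were chosen with earlier results of these data known. Named network genes were, per list, up to 4 with the smallest p among those called between HBx,src,p53 and WT over both treatments, and for mdm2 and cdkn1a the 5 genes most correlated over arrays. Genes outside this rule, among them chek2, were named after their values were seen. The study's own thresholds, fold 2 and unadjusted p under 0.05, were an alternative, beside other fits, scalings, probe set rules and leaving out arrays.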

Additional observations from a re-analysis of the deposited data

Results flagged for a closer look

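In HBx,src,p53 OF + 10 Gy, replicate 5 stood apart from the other 4 arrays for casp8, with a log2 signal of 6.65 against 5.92 to 6.11. It was 1 of 18 member groups of 4 or 5 arrays examined, and chance flags about 1 in 20.

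Among 76 tests of a difference between effects on named genes, some passed with limma. The network genes among them were chosen from those called between HBx,src,p53 and WT livers of batch 2. Arrays used for that choice also enter each test below, so for these genes a pass is no separate support. Of all genes, 8.08%, 6.81% and 6.93% were called in the tests below, in their order. The genotype difference in batch 2 minus that in batch 1 was -1.42 for casp8, 1.83 for cycsb, -1.80 for gtse1, 1.39 for mdm4, -2.49 for plk3 and -3.02 for siva1 (adjusted p of 0.00012 to 0.040). The effect of Oligo-Fucoidan in HBx,src,p53 minus that in WT livers at 10 Gy was 2.41 for chek1, -2.6 for cycsb, 4.11 for plk3, 3.89 for pmaip1, 1.64 for ppm1db and 5.22 for siva1 (adjusted p of 5.0e-06 to 0.040). The effect of Oligo-Fucoidan in WT livers at 40 Gy minus that at 10 Gy was 2.06 for ccng1, 2.13 for chek1, 6.08 for plk3, 1.70 for ppm1db and 5.14 for siva1 (adjusted p of 3.9e-05 to 0.024). All of these contain the WT 10 Gy arrays, whose ovary means were 6.26 and 6.54, and the part of the ovary transcripts was not tested. These arrays also had vtg2 at 13.7 and 13.9, against 2.42 to 6.36 in the other WT arrays, and its part was not tested.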

How the results depend on the processing

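Counts of called genes among the 9 moved under these settings. For HBx,src,p53 minus WT at 10 Gy the count of 0 became 2 with the mean of a gene's probe sets and 0 to 1 with single arrays left out. For HBx,src minus WT over both treatments it became 1 with quantile normalization over all arrays, with quantile normalization within each batch, with the mean of probe sets and with the dimmer probe sets dropped (37606 kept), and 0 to 1 with arrays left out. For OF + R minus R in WT at 40 Gy the count of 1 became 0 with the batch alone and with array weights, 2 at the study's thresholds, and 0 to 1 with arrays left out. In HBx,src livers it became 1 with the mean of probe sets, in WT livers at 10 Gy 0 to 1 with arrays left out, and in HBx,src,p53 livers 1 at the study's thresholds and 0 to 1 with arrays left out. For the difference between the genotype differences the count of 1 became 0 with the mean of probe sets and without the 2 low-vitellogenin arrays, an alternative chosen after seeing the data, and 0 to 1 with arrays left out. A fit of 1 batch alone gives no value for it.

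Of 58 single-gene results, 45 kept their sign under all alternatives that gave a value, and none of the reversed values was called (0). For HBx,src,p53 minus WT over both treatments, phlda3 was 0.0076 with the mean of probe sets, and bbc3 ran from -0.39 to 0.12 with arrays left out. At 10 Gy phlda3 ran from -0.89 to 0.013 and baxa from -0.37 to 0.010. At OF + 10 Gy mdm2 was 0.048 and cdkn1a -0.56 without the low-vitellogenin arrays, cdkn1a was -0.0055 with quantile normalization within each batch and -0.023 with array weights, and phlda3 was 0.033 with the mean of probe sets. With arrays left out the ranges there were -0.24 to 0.025 for mdm2, -0.28 to 0.38 for cdkn1a, -0.027 to 0.19 for ccng1, -0.97 to 0.22 for phlda3, -0.56 to 0.46 for bbc3, -0.36 to 0.16 for baxa and -0.033 to 0.55 for badb. bbc3 in HBx,src livers with Oligo-Fucoidan ran from -0.0061 to 0.70. The cause was not tested.

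Replicate numbers are shared between groups. Deviations of same-numbered arrays were at most weakly correlated (r of -0.13 to 0.15 in batch 1 and -0.04 to 0.15 in batch 2), so the numbers were not taken as pairs. In batch 1, same-numbered arrays of a line with and without Oligo-Fucoidan had r of 0.15 in WT and 0.05 to 0.13 in HBx,src livers. Unlike numbers had -0.15 and -0.16 to 0.05, so a pairing there remains possible. With the replicate block, the ccng1 count in WT livers at 40 Gy became 0 (1.64, adjusted p = 0.059), bbc3 was 0.011 at 10 Gy, and cdkn1a and ccng1 were -0.33 and -0.011 at OF + 10 Gy. In HBx,src,p53 minus WT over both treatments, the block also ended the calls of cop1 (-1.11, adjusted p = 0.059), baxb (-0.90, 0.099), chek1 (-0.70, 0.23), mdm4 (0.71, 0.16) and cycsb (1.26, 0.083).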
